A study of Bos indicus with 12 samples.

Results

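PEPD (ENSBTAG00000031941), ADAM9 (ENSBTAG00000017455), PI15 (ENSBTAG00000019587) and ASPN (ENSBTAG00000011847) encode peptidases or proteins tied to the extracellular matrix. They were taken as a group of 4 among the 24616 gene IDs counted, and all 4 passed a filter on low and erratic values that kept 14814. The study selected these genes on the difference between treated and control cows in the same 12 libraries, and they were grouped with earlier results of those libraries known. ENSBTAG00000017455 is called ADAM9 from the study's gene table, whereas its functional annotation lists ADAM9 and this ID as separate entries, the ID as uncharacterized. The values given for ADAM9 are those of this ID alone. Because of that selection, the values of the 4 genes in treated and control cows are given as a description, without a test. Later pregnancy, circulating progesterone and library quality were not used to pick them, and were tested.

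The endometrium, the lining of the uterus, rests on a matrix of collagen and proteoglycans that is taken apart and rebuilt over the estrous cycle and when an embryo implants. Peptidases at the cell surface and in the matrix cut these proteins and free growth factors from them, and secreted inhibitors hold some peptidases in check. Collagen is rich in proline, and the last small fragments of its breakdown are cleaved inside the cell so that the proline can be used again.

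Bulk RNA of endometrium biopsied from the uterine body on D 6 was sequenced in 12 multiparous, suckled, anestrous Nelore cows. The 6 ECP cows had received 1 mg of estradiol cypionate, an estradiol ester released slowly after injection, when the progesterone (P4) device was withdrawn, and the 6 CON cows had received no estradiol at that time. All 12 had received 2 mg of estradiol benzoate and a P4 device for 8 days, then cloprostenol, and 10 µg of buserelin 48 h after device removal, when they were inseminated. In each group 3 cows were later pregnant and 3 non-pregnant. Cows had been chosen so that both outcomes were present in each group. Estrus had been seen in every ECP cow chosen for sequencing and in none of the CON cows, so treatment and estrus cannot be told apart. P4 at biopsy was 3.05 to 4.73 ng/mL in ECP and 2.82 to 3.86 ng/mL in CON, and cows had been chosen to be similar in it.

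Each library came from a different cow, and total counts were 8637917 to 15015055 in ECP and 10662044 to 12765968 in CON. The study's read numbers set 6 libraries apart by a lower share of mapped reads, 3 ECP and 3 CON. Levels are given as normalized counts, the read counts divided by each library's size factor. They are comparable between cows for a gene, and not between genes, since gene length was not used here. Counting error was small for all 4 genes. At the lowest raw count it was 1.66% for PEPD (3646 reads), 4.49% for ADAM9 (495 reads), 6.67% for PI15 (225 reads) and 4.28% for ASPN (546 reads), against biological coefficients of variation between cows of 17.6%, 12.8%, 28.4% and 21.6%. Spread between libraries was therefore larger than counting error for all 4 genes. How much of it came from the animal, the biopsy or the library was not tested, since every library came from a different cow.

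PEPD is prolidase, the cytosolic enzyme that splits dipeptides ending in proline and so completes collagen breakdown. It had 4157 to 7993 normalized counts in ECP (median 6304) and 3498 to 4416 in CON (median 4036). The mean ± SD over 6 cows was 6217 ± 1373 in ECP against 3963 ± 372 in CON. The fitted log2 difference was 0.66. Of the ECP cows, 5 lay above every CON cow. The exception was B0646 at 4157, below the CON cows E0040 (4416) and 1814 (4251). The coefficient of variation was 22.1% in ECP and 9.39% in CON, so PEPD was spread over a 1.92-fold range in the treated cows and a 1.26-fold range in the controls.

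ADAM9 is a membrane-anchored metalloproteinase that sheds the outer parts of cell surface proteins and growth factor precursors. It had 580 to 819.03 normalized counts in ECP (median 744) and 510 to 633 in CON (median 573). ECP cows averaged 727 ± 82.4 and CON cows 569 ± 46.2 (mean ± SD of 6 cows), and the fitted log2 difference was 0.36. Again 5 ECP cows lay above every CON cow, but the exception was C317 at 580, below 3 of the CON cows. ADAM9 had the smallest difference of the 4 genes and the smallest spread, with coefficients of variation of 11.3% in ECP and 8.12% in CON.

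PI15, or peptidase inhibitor 15, is a secreted protein of the CAP domain family. It had 617 to 1040 normalized counts in ECP (median 779) and 213 to 606 in CON (median 336). ECP cows averaged 829 ± 160 against 378 ± 155 in CON cows (mean ± SD of 6 cows), which the model gave as a log2 difference of 1.14. PI15 was the only one of the 4 genes whose groups did not overlap. Of the 14814 genes, 45 (0.304%) were higher in every ECP cow than in every CON cow. PI15 had been chosen on this contrast, so nothing is read from that. The gap was narrow, 11.5 normalized counts between the lowest ECP cow (B0646, 617) and the highest CON cow (X228, 606). Within CON the gene varied 2.84-fold, with X228 and E0406 (523) apart from the other 4 cows, which had 213 to 364.

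ASPN encodes asporin, a small leucine-rich proteoglycan that binds collagen and transforming growth factor beta. It had 743 to 1463 normalized counts in ECP (median 1227) and 507 to 881 in CON (median 694). The averages were 1136 ± 295 for the ECP cows against 687 ± 123 for the CON cows (mean ± SD of 6 cows), and the log2 difference was 0.73. The ECP cows fell into 4 at 1153 to 1463, above every CON cow, and C317 (814) and X156 (743), both below the CON cow E0040 (881).

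**Figure D1:**
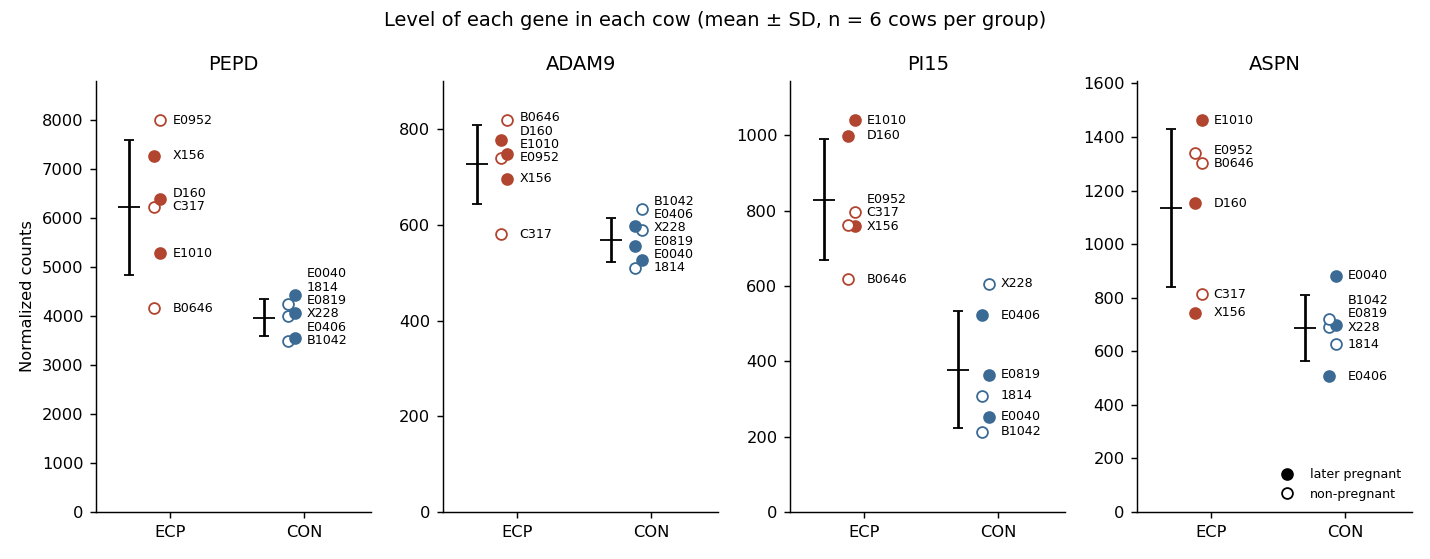
Normalized counts of PEPD, ADAM9, PI15 and ASPN (y axes, each from 0) in each of 6 ECP cows (left) and 6 CON cows (right). Filled points are later pregnant cows, open points non-pregnant cows, and bars give the mean ± SD; the groups are apart for PI15 only, by 11.5 normalized counts, and the exceptions differ between the other genes (B0646 for PEPD, C317 for ADAM9, C317 and X156 for ASPN).

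The log2 difference between ECP and CON, taken without its sign, had a median of 0.13 over all 14814 genes. On that measure PEPD stood at the 95.2 percentile of them, ADAM9 at 83.8, PI15 at 99.4 and ASPN at 96.4, which describes genes selected for this difference. As background, edgeR's quasi-likelihood test of this difference called 0 of the 14814 genes (0%) at a threshold of 0.10 (lowest adjusted p = 0.382). In that test 1295 genes had an unadjusted p under 0.05. The study, with DESeq2 at the same adjusted threshold, did report differentially expressed genes for this contrast. In bulk tissue, more cells of a type and more RNA per cell cannot be told apart. Markers of cell types could be looked up only in part. Of 7 epithelial markers 1 had a gene ID here, CEACAM1, a cell adhesion protein, with 3037 to 5490 normalized counts in ECP (median 3832) and 1834 to 3003 in CON (median 2447). Of 9 leukocyte markers 4 had one (CD244, SAMSN1, ALOX5 and AMICA1), and their sum was 265 to 421 in ECP (median 301) and 394 to 535 in CON (median 500). These markers come from the same selected genes as the 4 described here. Their part in the levels of PEPD, ADAM9, PI15 and ASPN was not tested. None of the 7 stromal, 5 smooth muscle, 5 endothelial and blood or 7 endometrial markers had a gene ID with a name, so the tissue label was not checked with them.

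The ECP cows did not share an order from gene to gene. E0952 had the most PEPD, B0646 the most ADAM9, and E1010 the most PI15 and the most ASPN. B0646 was lowest of the ECP cows for PEPD and PI15, highest for ADAM9, and in the middle for ASPN (1301). X156 was next to highest for PEPD (7272) and lowest for ASPN (743). C317 was close to the CON mean for ADAM9 and ASPN, at log2 ratios of 0.029 and 0.24, but stood at 0.65 for PEPD and 1.01 for PI15. D160, E0952 and E1010 were above every CON cow for all 4 genes. Each of the 6 ECP cows was above the CON mean for each gene, by log2 ratios of 0.069 to 1.01 for PEPD, 0.029 to 0.53 for ADAM9, 0.71 to 1.46 for PI15 and 0.11 to 1.09 for ASPN.

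**Figure D2:**
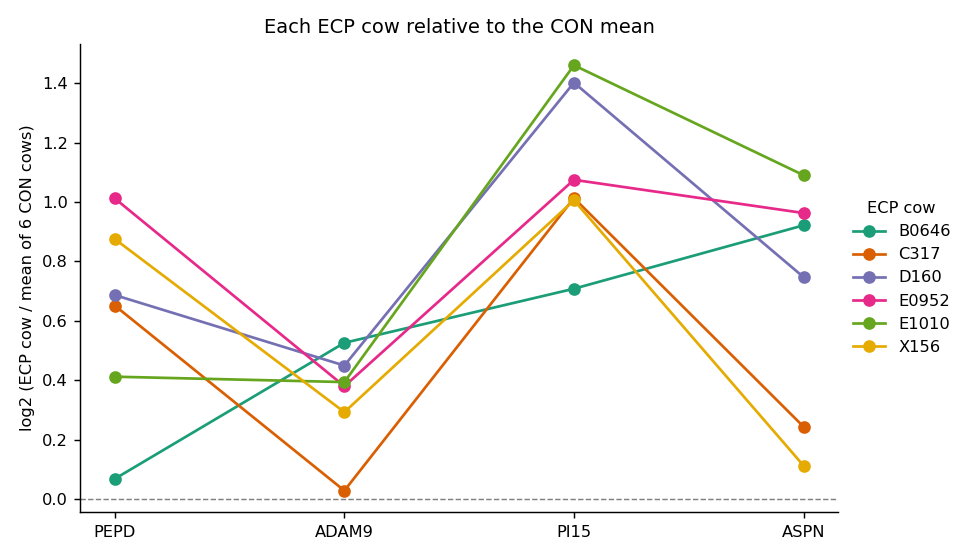
Log2 ratio of the normalized count in each ECP cow to the mean of the 6 CON cows (y axis) for the 4 genes (x axis), 1 line per ECP cow and a dashed line at the CON mean. All points lie above the CON mean, and the lines cross: B0646 is lowest for PEPD (0.069) and highest for ADAM9 (0.53).

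PEPD had nearly the same ratio of ECP to CON means in pregnant cows (1.57) as in non-pregnant cows (1.56). Normalized counts of PEPD in pregnant cows were 6309 ± 1000 with ECP against 4010 ± 439 without it, and in non-pregnant cows 6126 ± 1920 with ECP against 3917 ± 384 without it (mean ± SD of 3 cows). For ADAM9 the ratio was 1.32 in pregnant cows and 1.24 in non-pregnant cows, and for ASPN 1.61 and 1.70. PI15 had the widest gap between the ratios, 2.45 in pregnant and 1.93 in non-pregnant cows. In ECP, PI15 had 932 ± 152 in pregnant and 725 ± 94.95 in non-pregnant cows (mean ± SD of 3 cows). In CON it had 380 ± 135 in pregnant and 376 ± 205 in non-pregnant cows (mean ± SD of 3 cows). The gap depended on single CON cows. For PI15, the ECP minus CON log2 difference of pregnant cows minus that of non-pregnant cows was 0.35. It turned to -0.18 without X228 and was 0.66 without E0406.

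Neither pregnancy itself nor its interaction with ECP passed the test for any of the 4 genes. Pregnant against non-pregnant cows, with treatment in the model, gave log2 differences of 0.04 for PEPD (95% interval -0.26 to 0.34), 0.0044 for ADAM9 (-0.20 to 0.21), 0.19 for PI15 (-0.32 to 0.70) and -0.0071 for ASPN (-0.39 to 0.38). The PI15 difference depended on single cows, at 0.44 without X228 (unadjusted p = 0.0315 in edgeR) and 0.084 without E0406. In all 12 cows each gene had an adjusted p of 0.9997 in edgeR's quasi-likelihood test with Benjamini-Hochberg adjustment over 14814 genes. At a threshold of 0.10 the test called 0 genes (0%), with 481 at an unadjusted p under 0.05, and DESeq2 and limma voom called 0. The interaction, the ECP minus CON difference of pregnant cows minus that of non-pregnant cows, was 0.02 for PEPD (-0.62 to 0.66), 0.11 for ADAM9 (-0.32 to 0.54), 0.35 for PI15 (-0.70 to 1.40) and -0.06 for ASPN (-0.88 to 0.75), with edgeR adjusted p of 0.970 to 0.997. It called 0 genes (0%) in edgeR and in limma voom, with 777 at an unadjusted p under 0.05 in edgeR, and 13 in DESeq2, none of them among the 4. With 3 cows in each combination of treatment and pregnancy, differences as large as the ends of these intervals are not excluded.

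**Figure D3:**
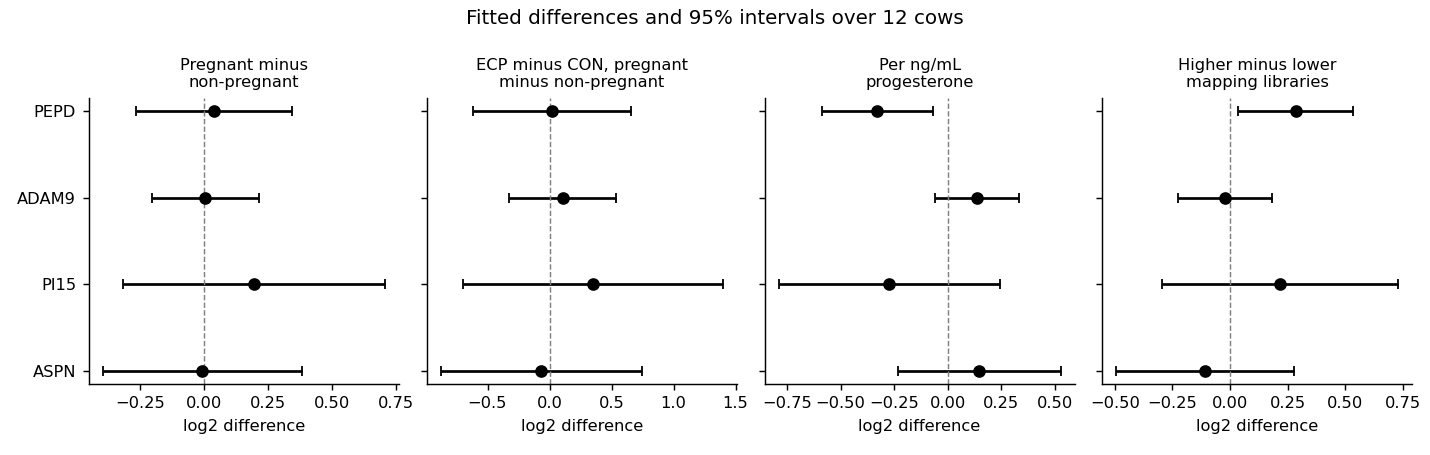
Log2 differences from edgeR (points) with 95% intervals (bars) for PEPD, ADAM9, PI15 and ASPN over 12 cows, in panels for pregnant minus non-pregnant cows, the interaction of ECP and pregnancy, the slope per ng/mL of progesterone, and higher minus lower mapping libraries. The dashed line marks 0, the x axes differ in range, and the intervals of PEPD lie off 0 for progesterone (-0.58 to -0.07) and for mapping (0.04 to 0.53), without either passing adjustment over all genes.

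PEPD had the lowest unadjusted p of the 4 genes for progesterone. With treatment in the model its log2 level changed by -0.33 per ng/mL (standard error 0.12, 95% interval -0.58 to -0.07), which did not pass adjustment over all genes in edgeR (adjusted p = 0.972). Among the 6 ECP cows r was -0.81 (exact permutation p = 0.0472, rho = -0.83, exact permutation p = 0.0583, adjusted p = 0.356 for r and 0.411 for rho over 8 relations). E0952 had the lowest progesterone of the ECP cows (3.05 ng/mL) and the most PEPD (7993), and B0646 the highest (4.73 ng/mL) and the least (4157). Without these 2 cows r was -0.24 over a narrower range of progesterone, so its strength depends on the cows at the ends of the range. With 1 cow left out r ran from -0.92 to -0.58. In the 6 CON cows r was -0.23 (exact permutation p = 0.721), and the difference between the groups in this relation was not tested. The slope moved to -0.18 per ng/mL without B0646 (unadjusted p = 0.200 in edgeR) and to -0.23 with library mapping class in the model (unadjusted p = 0.0901 in edgeR).

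ADAM9 had the opposite sign in the ECP cows. Its r with progesterone was 0.72 (exact permutation p = 0.0889, rho = 0.77, exact permutation p = 0.103, adjusted p = 0.356 and 0.411) and was 0.99 without E0952 and B0646. With 1 cow left out it ran from 0.58 to 0.96. In CON r was -0.04 (exact permutation p = 0.950). Over the 12 cows the slope was 0.13 per ng/mL (95% interval -0.06 to 0.33, edgeR adjusted p = 0.972). PI15 and ASPN had slopes of -0.27 (-0.79 to 0.25) and 0.15 (-0.23 to 0.53), with edgeR adjusted p of 0.972 and 0.975. Single cows moved both: the PI15 slope was -0.0093 without X228 and -0.41 without E0406, and the ASPN slope 0.040 without C317 and 0.33 without E0952.

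For PI15, r was -0.10 in ECP (exact permutation p = 0.819) and -0.61 in CON (exact permutation p = 0.203). The CON value rests on X228, which had the lowest progesterone (2.82 ng/mL) and the most PI15 of that group, and E0819, since r was 0.15 without them. With 1 cow left out it ran from -0.98 without E0406 (exact permutation p = 0.0167, adjusted p = 0.133) to -0.10 without X228 (exact permutation p = 0.892). For ASPN, r was 0.36 in ECP (exact permutation p = 0.467) and -0.05 in CON (exact permutation p = 0.913). The progesterone slope called 0 of 14814 genes (0%) in edgeR and in limma voom, with 695 at an unadjusted p under 0.05 in edgeR, and 11 in DESeq2, none of them among the 4 genes.

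**Figure D4:**
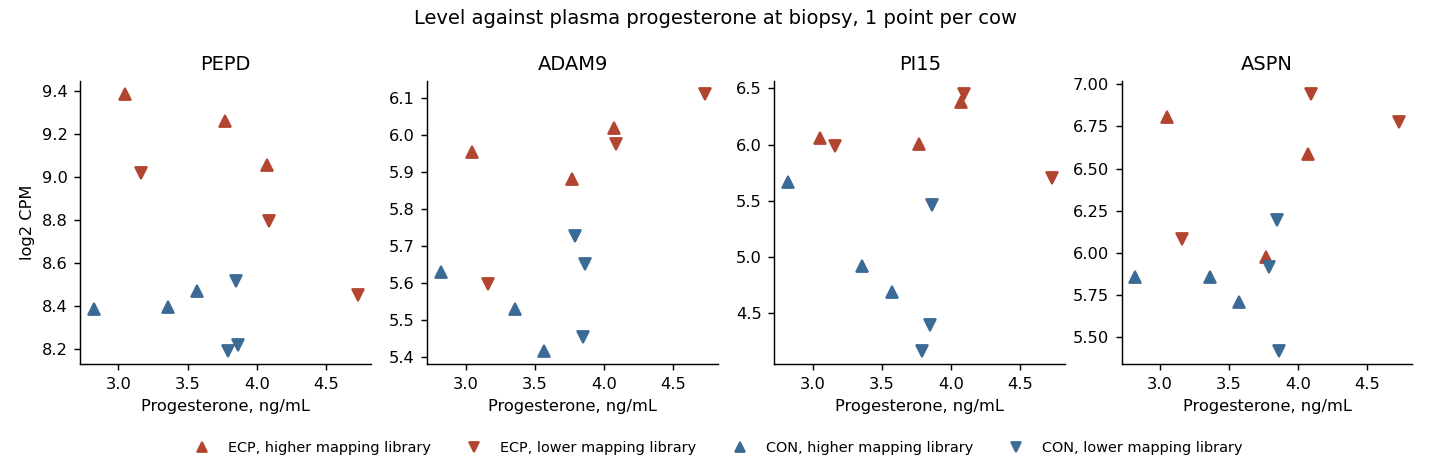
Log2 CPM, the log2 count scaled to library size (y axes, ranges differ and do not start at 0), of each gene against circulating progesterone at biopsy in ng/mL (x axes), 1 point per cow, red for ECP and blue for CON, triangles up for higher and down for lower mapping libraries. In ECP cows r was -0.81 for PEPD and 0.72 for ADAM9, and neither passes adjustment over the 8 relations.

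PEPD was also the gene of the 4 with the lowest unadjusted p for the mapping class of the library, which is balanced over treatment. Among CON cows the class went with progesterone, at 2.82 to 3.57 ng/mL in the 3 higher and 3.79 to 3.86 in the 3 lower mapping libraries. In CON, mapping class and progesterone therefore cannot be told apart. Among ECP cows the 3 higher mapping libraries had 6381 to 7993 normalized counts and the 3 lower mapping libraries 4157 to 6226, without overlap, while in CON they had 4002 to 4251 and 3498 to 4416. With 3 libraries against 3, an exact permutation test cannot go below p = 0.10. Higher minus lower mapping libraries gave a log2 difference of 0.29 over the 12 cows (standard error 0.11, 95% interval 0.04 to 0.53, edgeR adjusted p = 0.610, range 0.343 to 0.801 over the alternatives). For ADAM9, PI15 and ASPN the difference was -0.02, 0.22 and -0.11 (edgeR adjusted p = 0.981, 0.882 and 0.932), and with 1 cow left out that of PI15 ran from 0.053 to 0.41 and that of ASPN from -0.20 to -0.012. The test called 1 of 14814 genes (0.00675%) in edgeR, 0 in limma voom and 106 in DESeq2, none of them among the 4.

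Within each mapping class the ECP mean stayed above the CON mean for every gene. For PEPD the ratio of means was 1.76 in higher and 1.37 in lower mapping libraries, for ADAM9 1.34 and 1.22, for PI15 2.00 and 2.45, and for ASPN 1.61 and 1.70. Whether these ratios differ between the classes was not tested.

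Co-variation was examined within each treatment, and no pair of the 4 genes passed adjustment. Among 12 relations, 6 pairs in each group, the one with the lowest p was PEPD with ADAM9 in CON cows. There r was -0.91 (exact permutation p = 0.0167, adjusted p = 0.200) and rho was -0.94 (exact permutation p = 0.0167, adjusted p = 0.200), and r was -0.81 without B1042 and E0406. The CON cows with the most PEPD, E0040 (4416) and 1814 (4251), had the least ADAM9, at 527 and 510 normalized counts. Those with the least PEPD, B1042 (3498) and E0406 (3545), had the most ADAM9, at 633 and 597. Both genes span a narrow range in these cows, 1.26-fold for PEPD and 1.24-fold for ADAM9.

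In ECP cows the same pair had r = -0.38 (exact permutation p = 0.446, rho = -0.49). Its course depended on single cows, with r = -0.82 without C317 and 0.057 without B0646. With each treatment's mean subtracted, r over the 12 cows was -0.48 (permutation p = 0.198 within treatment, adjusted p = 0.778 over 6 pairs) and rho was -0.56 (permutation p = 0.0854, adjusted p = 0.512). Without C317 this r became -0.69 (permutation p = 0.00365, adjusted p = 0.0219), the only relation past the threshold when a cow was left out. With the mapping class removed as well, r was -0.58 (permutation p = 0.0884, adjusted p = 0.530).

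ADAM9 and ASPN had the highest r among ECP cows, 0.70 (exact permutation p = 0.0944, rho = 0.49, exact permutation p = 0.356, adjusted p = 0.567 for r and 0.853 for rho), and 0.71 without C317 and B0646. The points form a cluster of 4 cows high in both genes (B0646, D160, E0952 and E1010), with C317 and X156 low in ASPN. In CON cows r of this pair was -0.28 (exact permutation p = 0.621), and over the 12 cows with treatment means subtracted it was 0.41 (permutation p = 0.266), or 0.11 without C317. The difference between the groups was not tested.

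No relation of PI15 with the others had a p near the threshold. Its r in ECP was 0.25 with PEPD, 0.04 with ADAM9 and 0.28 with ASPN (exact permutation p = 0.594 to 0.946), and in CON it was -0.09, 0.18 and -0.57 (exact permutation p = 0.239 to 0.857). PEPD and ASPN had r = -0.39 in ECP (exact permutation p = 0.456) and 0.53 in CON (exact permutation p = 0.285). Without the 2 cows farthest from the median of the first gene, r in ECP turned to -0.70 for PEPD with PI15 and to -0.39 for PI15 with ASPN, and was 0.80 for ADAM9 with PI15. In CON it was then -0.86 for PEPD with PI15 and 0.97 for ADAM9 with PI15, so the values for PI15 rest on single cows.

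**Figure D5:**
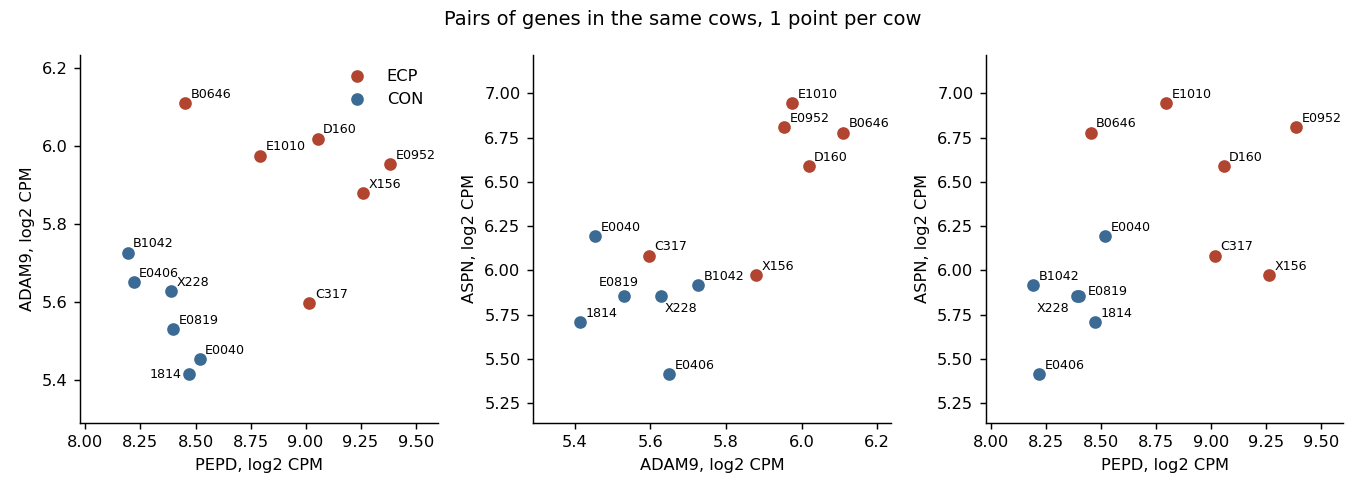
Log2 CPM in each cow for PEPD against ADAM9, ADAM9 against ASPN, and PEPD against ASPN (axes do not start at 0), red for ECP and blue for CON, 1 point per cow. The CON cows run from high ADAM9 to low ADAM9 as PEPD goes up (r = -0.91), and C317 is apart from the other ECP cows in ADAM9.

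The genes whose levels went most closely with each of the 4 were sought over the 12 cows after the treatment means were subtracted. These r are descriptive: all genes come from the same 12 libraries and share their depth and quality. Over 14813 genes, the highest r was 0.95 for PEPD (ENSBTAG00000046900), 0.94 for ADAM9 (ENSBTAG00000015978), 0.90 for PI15 (ENSBTAG00000007998) and 0.93 for ASPN (ENSBTAG00000009076). The 95th percentile of r over all genes was 0.59, 0.51, 0.53 and 0.57 for PEPD, ADAM9, PI15 and ASPN. Against the same genes, the r of -0.48 between PEPD and ADAM9 had 10.4% of genes below it and the r of 0.41 between ADAM9 and ASPN had 89.7%.

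Among the 120 kept genes with a symbol, PEPD went most closely with XRCC5, a DNA repair protein (r = 0.75), RPS2, a ribosomal protein (r = 0.75), and S100G, the calcium-binding protein calbindin-D9k (r = 0.67). ADAM9 went with CAMK1, a calmodulin-dependent kinase (r = 0.63), UPK3BL (r = 0.60) and TAF2, a subunit of the general transcription factor TFIID (r = 0.60). PI15 went with ACSF2, an acyl-CoA synthetase (r = 0.87), PTCH1, the receptor of hedgehog ligands (r = 0.76), and UBE4A, a ubiquitin ligase (r = 0.75). ASPN went with IDH3B, a subunit of mitochondrial isocitrate dehydrogenase (r = 0.71), MYL3, a myosin light chain (r = 0.51), and ENSBTAG00000017473 (r = 0.47). None of the 4 genes was among the 3 closest of another.

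Among the genes with a symbol, 6 others tied to the matrix or to peptide cleavage were listed, which is not the full set. All were selected on the same contrast, so their levels too are a description. ECP minus CON log2 differences were 1.29 for PM20D1, a secreted peptidase of the M20 family, 0.97 for VASH2, a vasohibin that removes the last tyrosine of tubulin, 0.85 for ADAMTSL1, a matrix protein like the ADAMTS proteases without their catalytic domain, and 0.75 for ECM1, a secreted matrix protein. They were -0.30 for FAM20C, a kinase of secreted proteins, and -0.20 for PSMB4, a proteasome subunit. VASH2 was higher in every ECP cow than in every CON cow, as PI15 was. PSMB4 was lower in every ECP cow, as 45 of 14814 genes (0.304%) were. None of the 6 passed the edgeR tests of pregnancy, interaction, progesterone or mapping after adjustment. The longer lists prepared for these families were matched by symbol for 1 of 11 small leucine-rich proteoglycans, 2 of 29 metalloproteinases and their inhibitors, 1 of 23 genes of collagen making and proline recycling, and 1 of 6 CAP proteins. These were the genes above, so the families as a whole are not described here.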

How the data were processed

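Endometrial RNA of 12 cows was sequenced. The authors trimmed reads with SeqyClean, mapped them with Bowtie2 2.1.0 to the masked UMD 3.1 assembly, sorted alignments with SAMtools 0.1.18 and counted reads per gene with HTSeq 0.5.4p2, and they deposited raw read counts, not normalized. Strand use and annotation release are not given in the sources used here. The submitters' processing notes also name CASAVA 1.8.2 and DESeq 1.12.1.

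Groups, pregnancy status and progesterone came from the sample labels, mapping class from the study's read numbers, and symbols from the study's gene table, which names 122 of the gene IDs used here and of which 1 gene is not reported here. Members and lists were chosen with earlier results of these data known. Named genes are the 4 members, the 6 matrix or peptidase genes listed beside them, list genes with a symbol, and the 3 genes of highest r with each member.

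The filter took genes whose mean normalized count exceeded 5 and their own SD. Counts were analysed in R 4.3.3 with edgeR 4.0.16 (TMM, quasi-likelihood test, Benjamini-Hochberg threshold 0.10). Standard errors are the log2 value divided by the square root of F. Correlations used log2 CPM (prior count 1), with exact permutations of 6 cows or 100000 within-treatment permutations for 12 (Python 3.11.15, scipy 1.17.1, matplotlib 3.10.9), all two-sided. Alternatives were DESeq2 1.42.0, limma 3.58.1 voom, other scalings, filters and covariates, a threshold of 0.05, a prior count of 5, and each cow left out. Scripts were tested on simulated data. Sequences and gene lengths were not used here.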

Additional observations from a re-analysis of the deposited data

How the results depend on the processing

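The ECP minus CON log2 differences kept their direction in all 84 values under the alternatives, at 0.46 to 0.80 for PEPD, 0.29 to 0.42 for ADAM9, 0.95 to 1.32 for PI15 and 0.65 to 0.83 for ASPN. The genes had been chosen on this contrast in the same cows, so nothing is read from the kept direction. No pregnancy, interaction, progesterone or mapping test called any of the 4 genes under any alternative run. Directions of small values did turn: the pregnancy difference of ADAM9 was -0.010 with upper quartile scaling, the interaction of PEPD -0.19 with mapping class in the model, and the treatment-centred r of PEPD and PI15 -0.17 with mapping class removed. DESeq2 called 13 genes for the interaction, 11 for progesterone and 106 for mapping. The single gene called for mapping was lost, leaving 0, at a threshold of 0.05, with upper quartile scaling, filterByExpr or limma voom. The causes were not tested.

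With each cow left out in turn, genes called ranged from 0 to 1 for the interaction, 0 to 1 for progesterone and 0 to 3 for mapping, and treatment-centred relations past the threshold from 0 to 1. Log2 values crossed 0 for pregnancy in PEPD (-0.057 to 0.14), ADAM9 (-0.061 to 0.050) and ASPN (-0.11 to 0.10), for the interaction in PEPD (-0.19 to 0.26), ADAM9 (-0.026 to 0.22), PI15 (-0.18 to 0.66) and ASPN (-0.30 to 0.16), and for mapping in ADAM9 (-0.090 to 0.020). Without crossing 0, PI15 ran from 0.084 to 0.44 for pregnancy, and the progesterone slope from -0.41 to -0.18 in PEPD, 0.062 to 0.20 in ADAM9, -0.41 to -0.0093 in PI15 and 0.040 to 0.33 in ASPN. In ECP, r crossed 0 for PEPD with ADAM9 (-0.82 to 0.057) and PI15 (-0.69 to 0.58), for PI15 with ADAM9 (-0.31 to 0.66) and ASPN (-0.054 to 0.71), and for PI15 with progesterone (-0.31 to 0.79). In CON, it did so for PI15 with PEPD (-0.76 to 0.23) and ADAM9 (-0.0073 to 0.92), for ADAM9 with ASPN (-0.54 to 0.077), and for progesterone with ADAM9 (-0.32 to 0.37) and ASPN (-0.48 to 0.44). Over the 12 treatment-centred cows it did so for PEPD with PI15 (-0.23 to 0.18) and ASPN (-0.43 to 0.0067), and for PI15 with ASPN (-0.33 to 0.0035). No paired analysis was run, since each library came from a different cow. The study blocked cows by body condition, parity and follicle diameter before treatment, and the labels used here do not give the blocks.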
